A study of Homo sapiens with 15 samples.

Results

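Histone methylation and acetylation enzyme genes were taken from a table of distal poly(A) site use as the genes whose symbol joins KDM, KMT, SETD, NSD, EHMT, PRMT or KAT to a number and at most 1 further letter. This rule found 47 of the 13056 genes in the table. By prefix they were 16 KDM, 8 KMT, 7 KAT, 6 PRMT, 6 SETD, 3 NSD genes and 1 EHMT gene. By known activity they were grouped as 15 lysine methyltransferases, 3 other SET domain proteins, 6 arginine methyltransferases, 16 demethylases and 7 acetyltransferases. The measure was PDUI, an index of distal poly(A) site usage given as a fraction. It estimates how large a part of the RNA from a gene extends to the farther of its 3' end sites. At a PDUI of 1 only the distal site is used, and near 0 nearly all RNA ends proximally, so a higher PDUI means a longer 3' untranslated region on average. All libraries came from HEK293T, a human embryonic kidney cell line that carries the SV40 large T antigen. Knockdown libraries carried a short hairpin RNA against SF3B4, U2AF2, PABPN1, PCBP2, ZNF384 or HDAC1, with 2 libraries per target (shSF3B4, shU2AF2, shPABPN1, shPCBP2, shZNF384, shHDAC1), and they were compared with 3 libraries of a control hairpin (shControl). The series was made to profile alternative polyadenylation after loss of its regulators, and its design text names all of these targets but ZNF384, which appears in the sample labels alone. How many hairpins were used per target, for how long, and with what selection of cells is not stated here, nor whether replicates were separate cultures. The p-values therefore measure only the spread between libraries.

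These enzymes write and erase marks on histone tails. Lysine methyltransferases, most with a SET domain, and arginine methyltransferases add methyl groups, demethylases remove them, and acetyltransferases add acetyl groups that loosen chromatin. Where a gene has more than 1 poly(A) site, the site chosen decides which binding sites for microRNAs and RNA-binding proteins the messenger RNA keeps. Of the targets, U2AF2 binds the polypyrimidine tract before 3' splice sites and SF3B4 is a subunit of the U2 snRNP. PABPN1 coats nuclear poly(A) tails and is known to hold back use of proximal sites, PCBP2 binds C-rich RNA, ZNF384 is a zinc finger transcription factor, and HDAC1 removes acetyl groups from histones.

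All 47 genes had a PDUI in all 15 libraries, so every one was tested in every comparison. PDUI does not measure the amount of RNA, so neither the knockdowns nor the identity of the cells could be checked from the table. The table holds no read counts, so depth is unknown. The library of shControl replicate 1 stood apart: its mean PDUI was 0.522 over the 11353 genes measured in all 15 libraries, against 0.56 and 0.561 in the other shControl libraries and 0.533 to 0.585 in the knockdown libraries. Its mean over the 47 enzyme genes was 0.491, against 0.539 and 0.54 in the other shControl libraries, and in 30 of the 47 it alone had the lowest of the 3 shControl values. Over these 47 genes the knockdown libraries averaged 0.492 to 0.561, and the lowest were those of shPABPN1, at 0.492 and 0.513. Results with shControl are therefore given with and without shControl replicate 1 where the call differs. The shControl library names also carry the suffix nuc, which the knockdown names lack, and the protocol names both nuclear and total RNA. Whether shControl libraries hold nuclear RNA and knockdown libraries total RNA is not stated. If the suffix marks another RNA fraction or preparation, every difference from shControl holds that difference too, and it cannot be told apart from the effect of a knockdown.

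In shControl the median PDUI of the enzyme genes was 0.527, with quartiles of 0.328 and 0.673, and that of all genes was 0.573, with quartiles of 0.307 and 0.81. PRMT1, the main producer of asymmetric dimethylarginine, and KDM5B, a demethylase of histone H3 lysine 4, stayed between 0.02 and 0.06 and between 0.03 and 0.05 in all 15 libraries. KAT7, PRMT7 and KDM5C also stayed low, with highest values of 0.15, 0.16 and 0.14. At the other end, KDM4D lay between 0.95 and 1, KDM8 between 0.8 and 1 and SETD1B between 0.85 and 1. Among classes, shControl medians were 0.62 for lysine methyltransferases, 0.513 for other SET domain proteins, 0.213 for arginine methyltransferases, 0.573 for demethylases and 0.31 for acetyltransferases. The range of 1 gene over the 15 libraries went from 0.02 for KDM5B to 0.5 for EHMT2, which writes methyl marks on histone H3 lysine 9 and read 0.5, 0.6 and 0.7 within shControl alone.

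**Figure D1:**
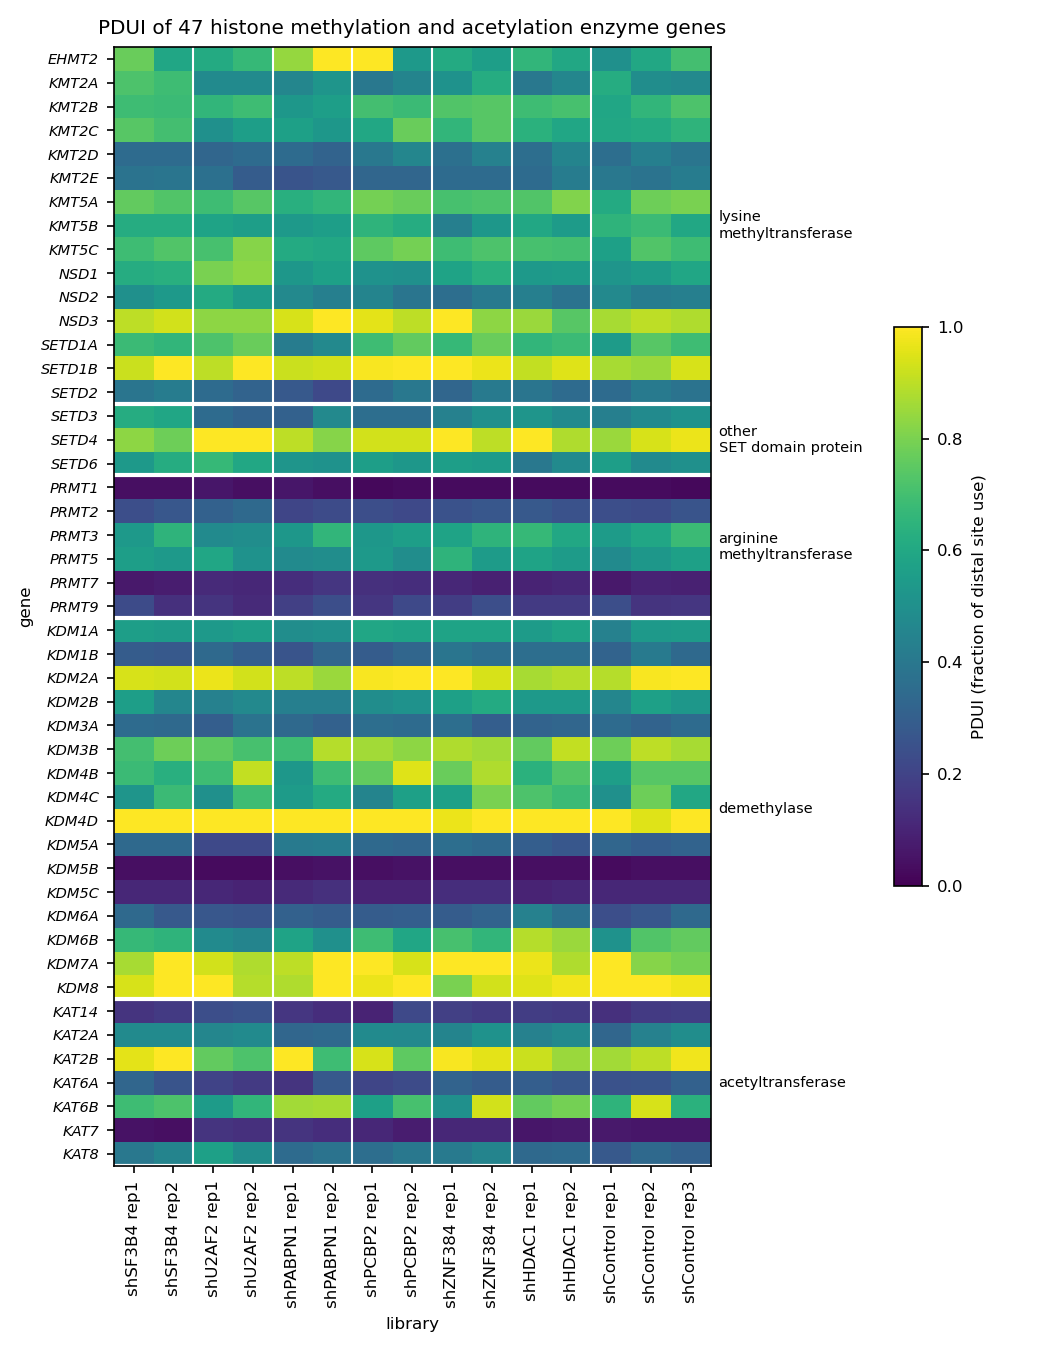
PDUI (color, fraction from 0 to 1) of the 47 enzyme genes (rows, grouped by class) in the 15 libraries (columns, shControl at the right). PRMT1 and KDM5B were dark throughout and KDM4D bright throughout, and KAT7 was brighter in the shU2AF2 and shPABPN1 libraries than in shControl.

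A gene was called changed at a Benjamini-Hochberg adjusted p under 0.05 in limma, adjusted over all genes tested. Against shControl, 6 of the 47 enzyme genes changed in shU2AF2, where 7.27% of all genes did. Of these 5 were higher, against 5.88% of all genes, and 1 was lower, against 1.39%. In shPABPN1 5 changed, where 4.72% of all genes did, with 3 higher (3.99% of all genes) and 2 lower (0.725%). In shZNF384 1 gene rose, where 1.5% of all genes changed (1.44% higher, 0.0638% lower). None was called by limma in shSF3B4 (background 5.42%), shPCBP2 (background 1.17%) or shHDAC1 (background 0.0243%), where 7, 7 and 4 of the 47 had an unadjusted p under 0.05, against 15.97%, 12.2% and 5.98% of all genes. The 12 calls fell on 9 genes: KAT7, KAT8, KDM5A, NSD1, NSD2, PRMT2, PRMT7, KMT2E and SETD2. The 6 comparisons share the shControl libraries, so they are not independent of each other. With 47 genes the shares in shU2AF2 and shPABPN1 rest on few calls, and they were not tested against the background. Without shControl replicate 1 the counts were 1 in shSF3B4, 7 in shU2AF2, 11 in shPABPN1 and 0 in shPCBP2, shZNF384 and shHDAC1, with backgrounds of 4.44%, 6.44%, 8.6%, 0.471%, 0.508% and 0.0326% of all genes. In shPABPN1 the count was 2 without shControl replicate 3 (2.84% of all genes) and 2 without shPABPN1 replicate 2 (4.18%). With each library centred on its median over all genes, 2 higher and 0 lower were left in shU2AF2, where 3.16% of all genes were called. In shPABPN1 1 higher and 0 lower were left, where 2.95% were. Both counts lay near the background, but centring itself sets apart the shControl values of some called genes, as described for KAT7 below. The centred counts therefore cannot decide whether the shares as deposited exceed the background. With only the 2 groups of a comparison in the fit, KAT7 in shU2AF2 was the 1 call left (2.65% of all genes), and in shPABPN1 no gene of 12278 was called.

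**Figure D2:**
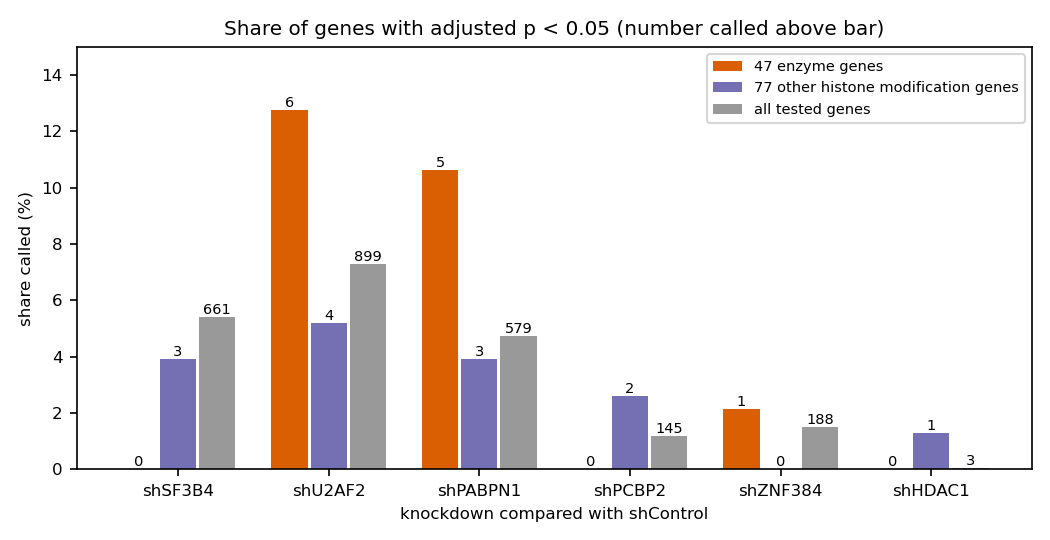
Share of genes with an adjusted p under 0.05 (limma) in each knockdown against shControl, for the 47 enzyme genes, 77 other histone modification genes and all tested genes, with the number called above each bar. The enzyme genes' bars stand above the all-gene bars in shU2AF2 (6 of 47) and shPABPN1 (5 of 47), and are at 0 in shSF3B4, shPCBP2 and shHDAC1. With libraries centred on their medians 2 and 1 were left.

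The median difference of the 47 genes from shControl lay near that of all genes in most comparisons. It was 0.0133 for the enzyme genes and 0.0117 for all genes in shSF3B4, 0.00833 and 0.015 in shPCBP2, 0.0217 and 0.0233 in shZNF384, and 0.0117 and 0.00333 in shHDAC1. In shU2AF2 it was -0.00667 for the enzyme genes and 0.0117 for all genes, and in shPABPN1 -0.0367 and -0.00933. Nothing was tested on these medians. The enzyme genes in shPABPN1 had 30 negative and 17 positive differences, the most negative being -0.215 in SETD1A. All tested genes also leaned that way, with 6735 negative and 4742 positive differences. Both libraries lay above every shControl library in 10 enzyme genes in shU2AF2 (19.2% of all genes), 8 in shPABPN1 (12.7%), 8 in shSF3B4 (17.1%), 7 in shPCBP2 (16.4%), 9 in shZNF384 (20.8%) and 2 in shHDAC1 (8.18%). Both lay below every shControl library in 12 enzyme genes in shU2AF2 (9.83% of all genes), 8 in shPABPN1 (13.3%), 4 in shSF3B4 (8.3%), 6 in shPCBP2 (5.27%), 4 in shZNF384 (3.65%) and 2 in shHDAC1 (7.07%).

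Among the 7 acetyltransferases, KAT7 and KAT8 rose. KAT7, of the MYST family, acetylates histone H3 and H4 at replication origins and transcribed genes. Its annotated last exon, chr17:49827401-49835030 on the plus strand (hg38, GENCODE release 29), was the longest of all enzyme genes at 7630 bases, of which 7528 are 3' untranslated, and held 11 poly(A) signal hexamers (AATAAA or ATTAAA). The table does not give the distal site that PDUI measured, so the annotated transcript ends used here were not shown to be that site, and the transcripts of KAT7, KDM5A, KMT2E and PRMT2 are annotated in another version than the table names. An exon of AC027801.4 overlaps it on the same strand, so reads of that gene could enter its value. The bases around the signal nearest the annotated end, at chr17:49835001-49835030, are shown with the signal in capitals because KAT7 was called in more knockdowns than any other enzyme gene.
KAT7: ctcaaaaaataaaaaAATAAAgataatacc
KAT7 PDUI was 0.15 and 0.14 in shU2AF2, against 0.07, 0.06 and 0.06 in shControl. In shPABPN1 it was 0.15 and 0.13, and in shZNF384 0.11 in both libraries. Every library of these 3 knockdowns lay above every shControl library, yet KAT7 remained a mostly proximal gene throughout. The differences from shControl were 0.0817 in shU2AF2 (SE 0.00932, limma adjusted p = 0.000708) and 0.0767 in shPABPN1 (SE 0.00932, limma adjusted p = 0.00185). The difference in shZNF384 was 0.0467 (SE 0.00932, limma adjusted p = 0.0481), and that call was lost without any 1 of the 5 libraries (adjusted p from 0.0968 to 0.225 over these) and turned to -0.00167 with libraries centred on their medians. Centring also ended the calls in shU2AF2 (difference 0.0583, adjusted p = 0.28) and shPABPN1 (difference 0.0983, adjusted p = 0.0642). It subtracts the library median from every gene alike, 0.51 in shControl replicate 1 and 0.58 in replicates 2 and 3. In a gene whose value in shControl replicate 1 is not the lowest of the 3, this offset itself sets the shControl values apart. Among the called genes these are KAT7, KDM5A, KMT2E, NSD2 and PRMT2. The centred fits therefore cannot decide whether these genes changed. In shPCBP2 KAT7 read 0.11 and 0.08, in shHDAC1 0.06 and 0.07 and in shSF3B4 0.05 and 0.04. The shSF3B4 libraries were thus the lowest of all 15, though the difference from shControl, -0.0183, had an adjusted p of 0.403 in limma.

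KAT8, the acetyltransferase of histone H4 in the MSL and NSL complexes, has its annotated last exon at chr16:31130456-31131393 on the plus strand, 938 bases long with 783 of them untranslated. KAT8 PDUI was 0.57 and 0.49 in shU2AF2, against 0.28, 0.34 and 0.31 in shControl. Both shU2AF2 libraries lay above all other 13 libraries, whose highest value was 0.45. The difference was 0.22 (SE 0.0291, limma adjusted p = 0.0017), and it stayed called without any 1 of the 5 libraries of the 2 groups and with libraries centred. KAT8 was also above every shControl library in both libraries of shSF3B4 (0.4 and 0.45), shZNF384 (0.41 and 0.45), shPCBP2 (0.36 and 0.4) and shPABPN1 (0.35 and 0.38), with adjusted p from 0.0572 to 0.376. Over all 6 knockdowns KAT8 averaged 0.412, against 0.31 in shControl (difference 0.102, SE 0.0206, limma adjusted p = 0.0294). KAT7 passed in that contrast as well (0.1 over the 6 knockdowns and 0.0633 in shControl, limma adjusted p = 0.0193), so 2 of the 47 enzyme genes were called there, against 3.4% of all genes. Neither call held without shControl replicate 1 (adjusted p = 0.138 for KAT8 and 0.0614 for KAT7), replicate 2 (0.056 and 0.0862) or replicate 3 (0.12 and 0.0976).

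The other 5 acetyltransferases were called in no comparison with shControl. KAT2B, also known as PCAF, a coactivator acetyltransferase, read 0.76 and 0.72 in shU2AF2, below the 0.86, 0.9 and 0.98 of shControl (difference -0.173, SE 0.085, limma adjusted p = 0.318). It ranged from 0.69 to 1 over all libraries, and the shPABPN1 libraries alone held both ends of that range. KAT2A, its paralog in the SAGA complex, read 0.33 and 0.34 in shPABPN1, beside 0.33, 0.44 and 0.49 in shControl. The adjusted p of that difference was 0.304 in limma, and 0.0204 without shControl replicate 1, which held the lowest control value. KAT6A, KAT6B and KAT14 ranged over 0.18, 0.44 and 0.15 in the 15 libraries.

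**Figure D3:**
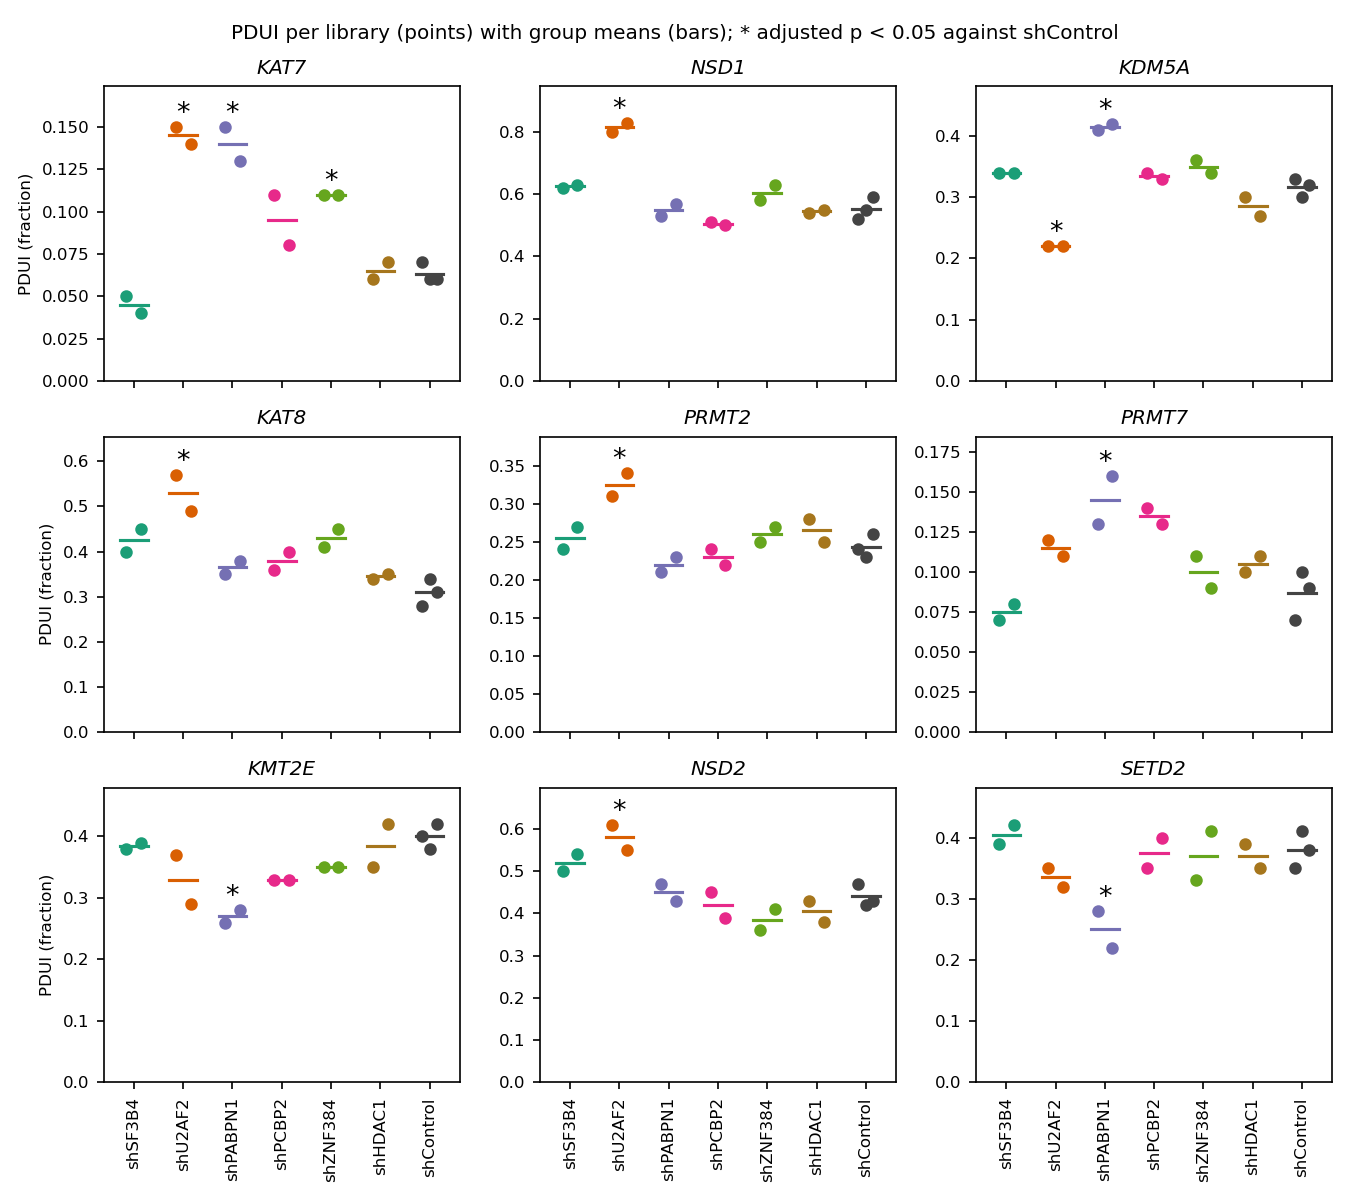
PDUI (fraction, axes from 0) in each library (points) with group means (bars) for the 9 enzyme genes called in any comparison with shControl, where asterisks mark an adjusted p under 0.05 (limma). Both shU2AF2 points lie above every other group for KAT8, NSD1, NSD2 and PRMT2 and below every other group for KDM5A. The KAT7 difference in shZNF384 turned to -0.00167 with libraries centred on their medians.

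Of the 15 lysine methyltransferases, NSD1 and NSD2 rose in shU2AF2 while KMT2E and SETD2 fell in shPABPN1. NSD1, NSD2 and SETD2 all methylate histone H3 lysine 36, NSD1 and NSD2 to the dimethyl state and SETD2 to the trimethyl state. KMT2E has a SET domain but is known as a reader of methylated histone H3 lysine 4 more than as an enzyme. The class had no call in the other 4 knockdowns. Its median difference was -0.015 in shU2AF2 and -0.0583 in shPABPN1, and over the class single differences ran from -0.09 to 0.262 in shU2AF2 and from -0.215 to 0.32 in shPABPN1.

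NSD1 showed the largest called difference from shControl of all enzyme genes. Its PDUI was 0.8 and 0.83 in shU2AF2, against 0.52, 0.55 and 0.59 in shControl. The other 5 knockdowns lay between 0.5 and 0.63, so no library came near the shU2AF2 pair. The difference was 0.262 (SE 0.0306, limma adjusted p = 0.00082), and it stayed called with libraries centred and without any 1 of the 5 libraries. The last exon of NSD1 lies at chr5:177293832-177300215 on the plus strand, 6384 bases with 4756 untranslated and 8 signal hexamers, none of them in the last 40 bases. NSD2 PDUI was 0.61 and 0.55 in shU2AF2 and 0.5 and 0.54 in shSF3B4, against 0.47, 0.42 and 0.43 in shControl. The shU2AF2 libraries were the highest, with those of shSF3B4 next, and the other 4 knockdowns overlapped shControl or lay below it. The shU2AF2 difference was 0.14 (SE 0.0313, limma adjusted p = 0.0274). The call was lost without shControl replicate 2 (adjusted p = 0.0768), shControl replicate 3 (0.0786) or shU2AF2 replicate 1 (0.187), and with libraries centred (0.209). Its last exon, chr4:1978638-1982207 on the plus strand, held 3 hexamers, all ATTAAA, and the nearest to the end stands at chr4:1982168-1982197, shown as the variant signal of a called gene.
NSD2: tttgtATTAAAaacattttaaaggcttttt
NSD1 and NSD2 thus moved in the same direction in the same knockdown, while NSD3, the third gene of that family, read 0.83 in both shU2AF2 libraries, against 0.87, 0.9 and 0.88 in shControl, and was not called.

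KMT2E PDUI was 0.26 and 0.28 in shPABPN1, against 0.4, 0.38 and 0.42 in shControl. Both shPABPN1 libraries lay below all other 13, whose lowest was 0.29 in shU2AF2. The difference was -0.13 (SE 0.0259, limma adjusted p = 0.0234). SETD2 PDUI was 0.28 and 0.22 in shPABPN1, against 0.35, 0.41 and 0.38 in shControl. These were again the lowest of all libraries, the next being 0.32 in shU2AF2. The difference was -0.13 (SE 0.0309, limma adjusted p = 0.0482). Centring ended both calls (adjusted p = 0.105 for KMT2E and 0.102 for SETD2). The KMT2E call was lost without shControl replicate 3 (0.0784), shPABPN1 replicate 1 (0.145) or shPABPN1 replicate 2 (0.0688), and the SETD2 call without shControl replicate 2 (0.129), shControl replicate 3 (0.122), shPABPN1 replicate 1 (0.0756) or shPABPN1 replicate 2 (0.249). The SETD2 call held in 4 of 15 alternatives: it was also lost without the trend (0.0521), with robust moderation (0.0532), without genes lacking spread (0.0558), without genes whose mean was under 0.05 or over 0.95 (0.0593), with a replicate block (0.217) and when the other 5 knockdowns were left out of the fit (0.211). The KMT2E call held in 9 of 15 and was also lost in these last 2 settings (0.175 and 0.0989). The SETD2 row is a transcript that GENCODE lists as a target of nonsense-mediated decay, with its last exon at chr3:47016429-47017254 on the minus strand. The KMT2E last exon lies at chr7:105111825-105114085 on the plus strand, 2261 bases with 752 untranslated. The signals nearest the annotated ends of these 2 genes with lower values are shown for chr7:105114052-105114081 (plus strand) and chr3:47016429-47016458 (minus strand).
KMT2E: ttcatgttAATAAAtcacaattatgtcagt
SETD2: aaaaaataaaatcaATTAAAgaacttggca

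SETD1A, KMT2A and EHMT2 had large differences that missed the threshold. SETD1A, a catalytic subunit of a COMPASS complex that methylates histone H3 lysine 4, read 0.42 and 0.47 in shPABPN1, against 0.55, 0.74 and 0.69 in shControl. The 2 shPABPN1 values were the lowest of all libraries, and the difference of -0.215 (SE 0.0575) had a limma adjusted p of 0.0743. Without shControl replicate 1 the difference was -0.27 and the adjusted p 0.0134. KMT2A, the MLL methyltransferase of the same mark, read 0.72 and 0.69 in shSF3B4, against 0.62, 0.49 and 0.47 in shControl. Only shControl replicate 1 and a shZNF384 library, both at 0.62, came near these values. The difference of 0.178 (SE 0.0503) had a limma adjusted p of 0.0873, and without shControl replicate 1 it was 0.225 (adjusted p = 0.0207). EHMT2 read 0.84 and 1 in shPABPN1, against 0.5, 0.6 and 0.7 in shControl, the largest difference from shControl of all enzyme genes at 0.32, but with an SE of 0.123 and a limma adjusted p of 0.213. The 2 shPCBP2 libraries read 1 and 0.54 for EHMT2. Its row is a non-coding transcript whose last exon overlaps EHMT2-AS1 on the opposite strand, and the strand used in counting is not stated. Without shControl replicate 1, KMT2B and KMT5A were also called lower in shPABPN1 (differences of -0.145 each, limma adjusted p = 0.0307 and 0.0408). None of the remaining lysine methyltransferases, KMT2C, KMT2D, KMT5B, KMT5C, NSD3 and SETD1B, was called in any comparison. Of these, KMT5B read 0.43 and 0.53 in shZNF384, the lowest of all libraries, against 0.65, 0.68 and 0.6 in shControl. That difference was -0.163 (SE 0.0373, limma adjusted p = 0.0809).

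The 3 other SET domain proteins are known mostly for substrates that are not histones, such as actin for SETD3 and RELA for SETD6. None was called against shControl. SETD3 PDUI was 0.62 and 0.59 in shSF3B4 and 0.35 and 0.32 in shU2AF2, against 0.43, 0.48 and 0.51 in shControl. The 2 splicing factor knockdowns thus lay on opposite sides of shControl without overlap, with limma adjusted p of 0.152 and 0.108. SETD4 ranged from 0.78 to 1 and SETD6 from 0.4 to 0.67.

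Of the 16 demethylases, KDM5A changed in both directions, lower in shU2AF2 and higher in shPABPN1, and the other 15 were not called against shControl. KDM5A removes methyl groups from histone H3 lysine 4. Its PDUI was 0.22 in both shU2AF2 libraries and 0.41 and 0.42 in shPABPN1, against 0.33, 0.3 and 0.32 in shControl. The shU2AF2 libraries were the lowest and the shPABPN1 libraries the highest of all 15, with every other library between 0.27 and 0.36. The differences from shControl were -0.0967 in shU2AF2 (SE 0.0124, limma adjusted p = 0.00143) and 0.0983 in shPABPN1 (SE 0.0124, limma adjusted p = 0.00225). Both calls held without any 1 library of their groups and were lost with libraries centred, where the differences were -0.12 and 0.12 (adjusted p = 0.0575 and 0.0618). Centring thus did not shrink the differences, and the offset it puts on shControl replicate 1 sets the shControl values of KDM5A apart, as for KAT7. The centred fits cannot decide whether KDM5A changed. The last exon of KDM5A lies at chr12:280129-285662 on the minus strand, 5534 bases with 5327 untranslated and 7 signal hexamers. The signal nearest the annotated end, at chr12:280139-280168, is shown because the PDUI of KDM5A moved both ways.
KDM5A: gtgAATAAActagagtgattttggaatttc
In the paralogs of KDM5A the differences had the same signs but were small, and neither gene was called against shControl. KDM5B read 0.03 in both shU2AF2 libraries and 0.04 and 0.05 in shPABPN1, against 0.03, 0.04 and 0.04 in shControl. Its differences were -0.00667 and 0.00833. KDM5C read 0.11 and 0.1 in shU2AF2 and 0.12 and 0.14 in shPABPN1, against 0.11 in all 3 shControl libraries. Its differences were -0.005 and 0.02.

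KDM6B and KDM6A, which remove methyl groups from histone H3 lysine 27, had their highest values in shHDAC1. KDM6B PDUI was 0.89 and 0.85 in shHDAC1, against 0.51, 0.73 and 0.76 in shControl. KDM6A PDUI was 0.44 and 0.37 in shHDAC1, against 0.24, 0.27 and 0.34 in shControl. In both genes the shHDAC1 libraries lay above all other 13 libraries. Neither passed against shControl (differences 0.203 and 0.122, SE 0.0707 and 0.0313, limma adjusted p = 0.665 and 0.445). KDM6B was also low in shU2AF2, at 0.48 and 0.45 (difference -0.202, limma adjusted p = 0.148), and without shControl replicate 1 this difference was -0.28 with an adjusted p of 0.00931. Without that library KDM6B was called lower in shPABPN1 too (-0.205, adjusted p = 0.0312), as was KDM2A (-0.12, adjusted p = 0.0209). KDM4B, a demethylase of histone H3 lysine 9, read 0.76 and 0.95 in shPCBP2, against 0.56, 0.74 and 0.74 in shControl, with a limma adjusted p of 0.504. KDM1A, KDM1B, KDM2B, KDM3A, KDM3B, KDM4C, KDM4D, KDM5B, KDM7A and KDM8 were called in no comparison.

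**Figure D4:**
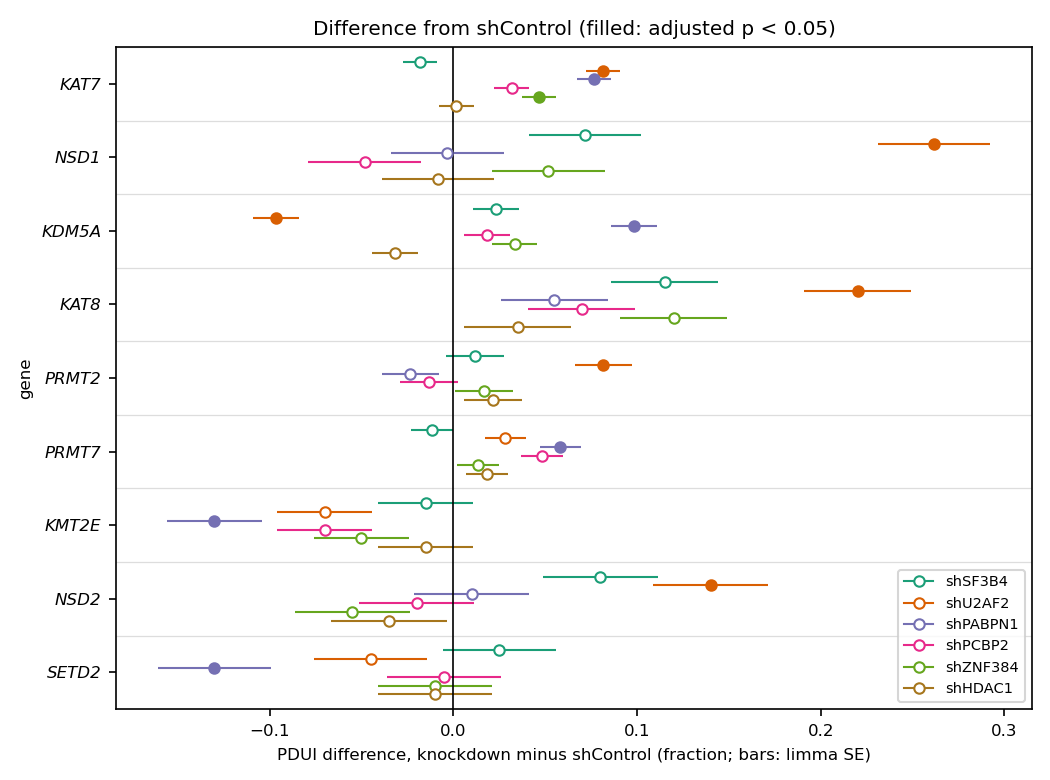
Difference in PDUI from shControl (fraction, knockdown minus shControl) of the 9 called enzyme genes in each of the 6 knockdowns, with limma standard errors as bars and filled points for an adjusted p under 0.05. KDM5A lies at -0.0967 in shU2AF2 and at 0.0983 in shPABPN1. The KAT7 value in shZNF384 turned to -0.00167 with libraries centred on their medians.

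Of the 6 arginine methyltransferases, PRMT2 rose in shU2AF2 and PRMT7 in shPABPN1. PRMT2, an asymmetric arginine methyltransferase and coactivator of nuclear receptors, read 0.31 and 0.34 in shU2AF2, against 0.24, 0.23 and 0.26 in shControl. Every other library lay at or under 0.28. The difference was 0.0817 (SE 0.0157, limma adjusted p = 0.013), and the call was lost without shU2AF2 replicate 2 (adjusted p = 0.115) and with libraries centred (0.333). PRMT7, which makes monomethylarginine, read 0.13 and 0.16 in shPABPN1, against 0.07, 0.1 and 0.09 in shControl. The shPCBP2 libraries, at 0.14 and 0.13, overlapped the shPABPN1 pair and also lay above shControl, with a limma adjusted p of 0.11. The shPABPN1 difference was 0.0583 (SE 0.0114, limma adjusted p = 0.0214), and the call was lost without shControl replicate 3 (0.0585) or shPABPN1 replicate 2 (0.122). The PRMT7 last exon, chr16:68357054-68358553 on the plus strand, overlaps SMPD3 on the opposite strand. That of PRMT2 lies at chr21:46664295-46664951 on the plus strand, is 657 bases long, and has its nearest signal at chr21:46664915-46664944, shown as the signal in the shortest last exon of the called genes.
PRMT2: acatgctcAATAAAtatttttaaatgagtg
PRMT1, PRMT3, PRMT5 and PRMT9 were called in no comparison.

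Differences between knockdowns do not use the shControl values, though the spread within shControl enters their standard errors, since all 15 libraries were fitted together. No call of an enzyme gene in these comparisons was lost without shControl replicate 1. With only the knockdown libraries in the fit the calls lost were KDM5C in shPABPN1 against the other 5 knockdowns (adjusted p = 0.0555 in limma), KMT2E between shPABPN1 and shSF3B4 (0.0515), and KAT8, KDM5C and SETD3 in the test among the 6 (0.0504, 0.0753 and 0.0520). Against the mean of the other 5 knockdowns, 9 enzyme genes were called in shPABPN1 (background 11.2%), 6 in shU2AF2 (6.49%), 4 in shSF3B4 (6.99%) and 4 in shHDAC1 (5.84%). None was called by limma in shPCBP2 (1.39%) or shZNF384 (0.646%), where 9 and 8 had an unadjusted p under 0.05, against 11.2% and 12.4% of all genes. Without shControl replicate 1 the count in shPABPN1 was 14, against 17.6% of all genes. The 6 genes of shU2AF2 were those called against shControl, with differences of 0.054 for KAT7, 0.141 for KAT8, -0.125 for KDM5A, 0.249 for NSD1, 0.144 for NSD2 and 0.079 for PRMT2 (limma adjusted p from 0.000142 to 0.013). In shPABPN1 the 5 genes called against shControl passed again, together with KAT2A, KMT2B, SETD1A and KDM5C. SETD1A averaged 0.445 in shPABPN1 and 0.706 over the other 5 (difference -0.261, SE 0.0488, limma adjusted p = 0.0139), KMT2B 0.545 and 0.697 (-0.152, adjusted p = 0.0226), and KAT2A 0.335 and 0.472 (-0.137, adjusted p = 0.0369). KDM5C moved by 0.02, with 0.13 in shPABPN1 and 0.11 over the other 5 (adjusted p = 0.0395). Centring ended the calls of KAT7, NSD2 and PRMT2 in shU2AF2 and of KAT2A, KMT2B, KMT2E and SETD2 in shPABPN1. The KDM5C call was lost without the trend (adjusted p = 0.0779) and the PRMT7 call on the logit scale (0.0553). With libraries centred, the split in shPABPN1 was 6 higher and 1 lower, against 4 higher and 5 lower as deposited. All genes turned the same way, with 805 higher and 93 lower when centred (7.83% called), against 480 and 808 as deposited (11.2%).

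In shSF3B4, KMT2A averaged 0.705, against 0.478 over the other 5 knockdowns (difference 0.227, SE 0.0427, limma adjusted p = 0.0123), and SETD3 0.605, against 0.411 (0.194, SE 0.0373, adjusted p = 0.0139). KAT7 and PRMT7 were lower there (-0.066 and -0.045, adjusted p = 0.00115 and 0.0235), and these 2 calls were lost with libraries centred. In shHDAC1, KDM6B averaged 0.87, against 0.598 over the other 5 (0.272, SE 0.06, limma adjusted p = 0.0312), and KDM6A 0.405, against 0.295 (0.11, SE 0.0266, adjusted p = 0.0451). The KDM6A call was lost with libraries centred (adjusted p = 0.0616), on the logit scale (0.0586) and without the trend (0.0529), and the KDM6B call held under all 3. KAT7 and KDM5A were lower in shHDAC1 than in the other 5 (-0.042 and -0.047, adjusted p = 0.0151 and 0.033), lost with libraries centred. Both overlapped shControl in shHDAC1, with uncalled differences of 0.00167 for KAT7 and -0.0317 for KDM5A.

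Pairs of knockdowns were also compared directly. Between shSF3B4 and shU2AF2, whose targets both act in recognition of the 3' splice site region, 4 enzyme genes differed (background 3.95%). SETD3 and KDM5A were higher in shSF3B4 than in shU2AF2, by 0.27 (SE 0.0482, limma adjusted p = 0.0164) and 0.12 (SE 0.0136, adjusted p = 0.00169). KAT7 and NSD1 were lower, with differences of -0.1 (SE 0.0102, adjusted p = 0.000982) and -0.19 (SE 0.0336, adjusted p = 0.0159). Between shPABPN1 and shU2AF2, 5 differed (background 8.09%), and 9 did without shControl replicate 1 (11.8%). KDM5A had the smallest p, with 0.415 in shPABPN1 and 0.22 in shU2AF2 (difference 0.195, SE 0.0136, limma adjusted p = 9.03e-05). NSD1, SETD1A, KAT8 and PRMT2 were lower in shPABPN1 than in shU2AF2, with differences of -0.265, -0.3, -0.165 and -0.105 (adjusted p = 0.00179, 0.0219, 0.0156 and 0.00675). KAT7, whose shPABPN1 and shU2AF2 values overlapped, was not among them. Between shPABPN1 and shSF3B4, 7 differed (background 9.82%): KAT7, KDM5A and PRMT7 were higher in shPABPN1, by 0.095, 0.075 and 0.07, and SETD3, KMT2A, SETD2 and KMT2E lower, with differences of -0.215, -0.215, -0.155 and -0.115 (limma adjusted p from 0.000608 to 0.0407). Of these 16 calls, centring removed KAT7, KDM5A and NSD1 between shSF3B4 and shU2AF2, PRMT2 between shPABPN1 and shU2AF2, and the 4 lower genes between shPABPN1 and shSF3B4.

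In the moderated F-test among the 6 knockdowns, 10 enzyme genes differed (background 12.9%). They were KAT7, KAT8, KDM5A, KDM5C, KMT2A, NSD1, NSD2, PRMT2, PRMT7 and SETD3, with KDM5A at the smallest limma adjusted p, 0.000311. Among these 10, the spread between the highest and lowest knockdown mean was widest in NSD1 at 0.31 and narrowest in KDM5C at 0.03, and KDM6B, which was not called, had a wider one of 0.405, as had EHMT2, also not called, at 0.335. Centring ended the calls of KDM5C, KMT2A, NSD2 and PRMT2. In all, 17 of the 47 genes were called in at least 1 of the 17 comparisons, 8 of them only in those without shControl, and 30 in none. Of the 11449 genes tested in all 17 comparisons, 23.1% were called in at least 1.

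The last exons of the enzyme genes were compared with those of all genes in GENCODE release 29, in which 46 of the 47 transcripts were found and 25 had the same version. KDM1B was not matched. The median last exon was 1546.5 bases long in the enzyme genes and 1372 in all genes, and the median number of signal hexamers was 3 and 2. Of the 46, 34 (73.9%) held AATAAA or ATTAAA on the transcript strand within the last 40 bases, against 72.6% of all transcripts. NSD1, KAT8, PRMT7 and KAT2B had neither sequence in this window. For 6 genes the row was a transcript not listed as protein coding: SETD2, KDM3A, KDM3B, EHMT2, PRMT1 and SETD4. In 11 of the 46 the last exon overlapped an exon of another gene, against 26.6% of all. The 9 called genes ran from a last exon of 657 bases in PRMT2 to 7630 in KAT7, and those of NSD1 and KDM5A came next, at 6384 and 5534 bases.

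**Figure D5:**
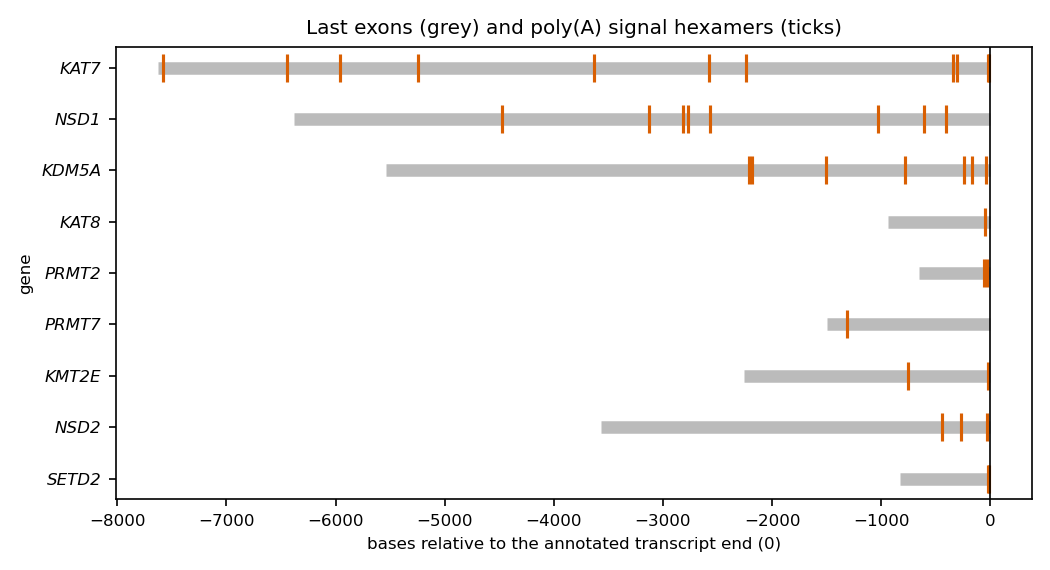
Last exons of the 9 called enzyme genes (grey bars, bases before the annotated transcript end at 0) with AATAAA and ATTAAA hexamers (ticks). KAT7 held 11 hexamers in 7630 bases, and KAT8, PRMT7 and NSD1 had none in the last 40 bases.

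Of a list of 84 other histone methylation and acetylation genes (enzymes with other names and subunits of their complexes), 77 were in the table. Against shControl, 3 changed in shSF3B4 (2 higher, 1 lower), 4 in shU2AF2 (2 and 2), 3 in shPABPN1 (2 and 1), 2 in shPCBP2 (both higher) and 1 in shHDAC1 (lower). In shZNF384 limma called 0, and 14 had an unadjusted p under 0.05, against 13.8% of all genes. The shares of the 77 were 3.9% in shSF3B4, 5.19% in shU2AF2 and 3.9% in shPABPN1, below the 5.42%, 7.27% and 4.72% of all genes. In shPCBP2 and shHDAC1 they were 2.6% and 1.3%, above the 1.17% and 0.0243% of all genes. These shares were not tested against the background. Without shControl replicate 1 the counts were 2 in shSF3B4, 1 in shU2AF2, 7 in shPABPN1 and 1 in shPCBP2, with backgrounds of 4.44%, 6.44%, 8.6% and 0.471% of all genes. With any 1 library left out they were 0 to 2 in shU2AF2 (4.55% to 6.44% of all genes), 1 in shPCBP2 (0.364% to 0.979%) and 1 to 7 in shPABPN1 (2.84% to 8.6%). Several belong to the complexes of enzyme genes described above. ING5, a subunit of the KAT6A, KAT6B and KAT7 complexes, averaged 0.97 ± 0.0283 in shSF3B4, 0.845 ± 0.00707 in shPABPN1 and 0.85 ± 0.0566 in shPCBP2, against 0.623 ± 0.0404 in shControl (SD, n = 2 per knockdown and 3 in shControl, limma adjusted p = 0.00092, 0.012 and 0.0304). The ING5 call in shPCBP2 was lost without any 1 library (0.0818 without shControl replicate 1) and with libraries centred (0.26), and that in shPABPN1 without either shPABPN1 library (0.0689 and 0.0634). JADE2, a scaffold of the KAT7 complex, averaged 0.43 in shSF3B4 and 0.29 in shU2AF2, against 0.173 in shControl (limma adjusted p = 0.00092 and 0.0405). The JADE2 call in shU2AF2 was lost without any 1 library (0.0649 without shControl replicate 1) and with libraries centred (0.229). DR1, a subunit of the KAT2A and KAT14 complex, averaged 0.17 in shU2AF2, 0.255 in shPABPN1, 0.21 in shPCBP2 and 0.075 in shSF3B4, against 0.117 in shControl (limma adjusted p = 0.0115, 0.000125, 0.005 and 0.0461). The DR1 call in shSF3B4, the one lower value, was lost without any 1 library (0.0728 without shControl replicate 1, at most 0.249) and with libraries centred (0.159). Centring also ended the DR1 calls in shU2AF2 (0.588) and shPCBP2 (0.441), and leaving out either shU2AF2 library ended that in shU2AF2 (0.0685 and 0.0708), while DR1 in shPABPN1 held under each of these. PHF2, a demethylase of the KDM7 family, fell to 0.605 in shU2AF2, against 0.813 in shControl (limma adjusted p = 0.0236), and DOT1L, which methylates the globular core of histone H3, fell to 0.32 in shU2AF2, against 0.46 in shControl (limma adjusted p = 0.0428). Without shControl replicate 1 neither passed (0.0554 for PHF2 and 0.0661 for DOT1L), nor without either shU2AF2 library (0.107 to 0.118 for PHF2, 0.0752 and 0.258 for DOT1L), and DOT1L was lost with libraries centred (0.0534). CREBBP, the acetyltransferase CBP, fell to 0.29 in shPABPN1, against 0.38 in shControl (limma adjusted p = 0.0418), lost with libraries centred (0.172) and without shControl replicate 2 (0.114), shControl replicate 3 (0.127) or either shPABPN1 library (0.261 and 0.0537). On the logit scale the calls of PHF2 (0.123) and JADE2 (0.0668) in shU2AF2 and of ING5 in shPABPN1 (0.198) and shPCBP2 (0.266) were lost. DOT1L was the fourth gene called in shU2AF2 and is named although the rule stops at 3 per comparison. JMJD6 fell in shHDAC1, to 0.805 against 1 in the 2 shControl libraries with a value, which had no spread (limma adjusted p = 1.92e-07, and 0.0890 with libraries centred).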

How the data were processed

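Messenger RNA captured on oligo(dT) beads was sequenced from 15 libraries. Per the labels' protocols, nuclear RNA was isolated before a total RNA kit was used, so which of the 2 the libraries hold is unclear. The authors deposited 1 table of PDUI values in the unit fraction, from 0.001 to 1 with 2 decimals, on hg38 per the submitters' processing notes. The aligner and the program behind PDUI are not stated, and the depth is unknown.

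The deposited values were analysed untransformed with limma 3.58.1 (R 4.3.3). All 15 libraries were fitted with 1 mean per group and a trend in eBayes (8 residual degrees of freedom, 1.06 from the prior), and p-values, two-sided, were adjusted by Benjamini-Hochberg over all genes of a comparison. A gene was tested with a value in 2 knockdown and at least 2 shControl libraries. The fit was run on simulated data with independent noise and no offset between libraries. Only the mean error of the estimated differences had to pass there, so this says nothing on how reliable the calls are. The shSF3B4 columns were assigned to the group only, since titles and library names number them differently.

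The enzyme genes, the list of other genes and the tests were chosen with earlier results of these data known. Named genes are all those called against shControl, then the 6 uncalled genes with the largest difference whose knockdown libraries both lay outside the shControl range, and up to 3 called genes of the other list per comparison. Further genes were named after their values were seen. Last exons and sequences come from GENCODE release 29 (GRCh38), matched by transcript identifier. That release holds 97.3% of all transcripts of the table, 54.9% in an identical version. Alternatives covered scale, centring, the libraries in the fit, moderation, filters, single libraries left out and a replicate block.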

Additional observations from a re-analysis of the deposited data

How the results depend on the processing

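The 12 calls of enzyme genes against shControl were refitted under 180 alternatives in all: 129 kept the call, 51 lost it and 179 kept the direction. The exception was KAT7 in shZNF384, at -0.00167 with libraries centred on their medians. Each call had 15 alternatives, of which not every loss is named above. In shU2AF2 the call was kept in 14 for KAT7, KAT8 and NSD1, 13 for KDM5A, 12 for PRMT2 and 9 for NSD2. In shPABPN1 it was kept in 13 for KAT7 and KDM5A, 11 for PRMT7, 9 for KMT2E and 4 for SETD2. The KAT7 call in shZNF384 was kept in 3. Centring left 2 calls in shU2AF2 (3.16% of all genes) and 1 in shPABPN1 (2.95%). It left 0 in shZNF384 (0 of all 12541 genes) and 0 for all 6 knockdowns together (0.0349%). Against the other 5 knockdowns it left 2 in shSF3B4 (3.33% of all genes), 3 in shU2AF2 (2.93%) and 1 in shHDAC1 (1.78%). Between pairs it left 1 for shSF3B4 and shU2AF2 (1.39%) and 3 for shPABPN1 and shSF3B4 (6.47%). With only the 2 groups in the fit, calls numbered 1 in shU2AF2 (2.65%), 0 in shPABPN1 (0 of all 12278 genes) and 0 in shZNF384 (0.0399%). The single shZNF384 call was also lost, leaving 0, without the trend (0.957% of all genes) and with robust moderation (1.06%). It was lost too without genes lacking spread (0.995%) and without genes whose mean was under 0.05 or over 0.95 (0.916%). Leaving out 1 library gave 0 to 1 calls in shSF3B4, 5 to 7 in shU2AF2, 2 to 11 in shPABPN1, 0 in shZNF384 and 0 for all 6 knockdowns together. In the fits without 1 shControl library, shares of all genes were 3.85% to 4.44% in shSF3B4, 5.8% to 6.44% in shU2AF2 and 2.84% to 8.6% in shPABPN1. They were 0.18% to 1.15% in shZNF384 and 0.95% to 1.8% for all 6 knockdowns together. Against the other 5, shPCBP2 had 1 call on the logit scale (1.4% of all genes) and 1 without the trend (1.04%). Without shControl replicate 1, shPABPN1 had 14 against the other 5 (17.6%), and the pair of shPABPN1 and shU2AF2 had 9 (11.8%). The cause of these differences was not tested.

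To look for pairing, the difference between replicates 1 and 2 of a knockdown was correlated with that of shControl. The correlations were 0.00586 to 0.0468 over 11353 genes, shSF3B4 left out. Same-numbered libraries thus shared little deviation, though this cannot decide whether they were prepared together. A replicate block gave 5 calls in shU2AF2 (4.3% of all genes), 2 in shPABPN1 (1.89%) and 0 in shZNF384, shPCBP2 and shHDAC1, and could not be fitted for shSF3B4. For the 77 other genes, called after centring were 1 in shU2AF2 (3.16% of all genes), 0 in shPCBP2 (0.0322%) and 0 in shHDAC1 (0%). On the logit scale 1 was called in shPCBP2 (1.25%) and 1 in shZNF384 (2.07%). Leaving out 1 library gave 0 to 2 in shU2AF2, 1 to 7 in shPABPN1, 1 in shPCBP2, 0 to 1 in shZNF384 (0.18% to 1.15% of all genes) and 0 to 1 in shHDAC1 (0.0326% to 0.408%). AATAAA alone stood in the last 40 bases of 50% of the enzyme genes' transcripts, against 58.8% of all. Some alternatives, among them single shControl libraries left out for all 6 knockdowns, shControl libraries left out for comparisons among knockdowns, and those for the 77 genes and the motif, were added after seeing the data. The unknown depth limits every value.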
